A study of Allium sativum with 18 samples.

Results

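Ershuizao and Chalingzipisuan, a pair of garlic varieties, were separated by 82 genes of the 57561 in the deposited table, and the other variety of the study, Yuanjiangyangsuan, was placed with Chalingzipisuan at 46 of them and with Ershuizao at 20. The genes were chosen on L, the log2 of the FPKM value plus 0.5, where FPKM is the number of sequenced fragments of a gene scaled to its length and to the total of the library. A gene was taken where all 6 Ershuizao libraries lay more than 1 above, or all more than 1 below, all 6 Chalingzipisuan libraries, at whichever stage. Of the 82 genes, 70 were higher in Ershuizao and 12 were lower. Of the 46 genes placed with Chalingzipisuan, 43 were higher in Ershuizao, so that Chalingzipisuan was the low variety there. Among the 12 lower genes, 3 were placed with Chalingzipisuan and 4 with Ershuizao. Because the genes were selected on these values, the differences between Ershuizao and Chalingzipisuan are given as a description, with no test.

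The libraries were made from RNA of 3 varieties grown on the same farm, Yuanjiangyangsuan, Ershuizao and Chalingzipisuan. Each variety was sampled under enlarging growth of the bulb and, a month earlier, before its bulbs had begun to enlarge, with 3 individual plants at each stage, which makes 18 libraries in 6 groups. The labels give no treatment and no genotype other than the variety. In the labels the tissue is leaf but the stage is one of the bulb, and the methods of the study describe bulbs. The gene IDs are not paired with names, so that the tissue could not be checked against marker genes. Stage and month of sampling cannot be told apart.

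Garlic is sterile and is multiplied by planting its cloves, so that a variety is kept as a clone. A clove is an axillary bud that swells into a storage organ, and the start of this swelling, which depends on day length and temperature, differs between varieties. All libraries were aligned with 1 reference genome, so that a variety without transcripts of a gene and a variety whose transcripts do not align with the reference form of that gene cannot be told apart in FPKM values. What the 82 genes encode is not given here, and they are described by their ID and level.

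The libraries held 11925012 to 16480041 fragments as recovered from the steps of the FPKM values, of which 81.6% to 90.5% lay on genes, and 30914 to 34172 genes were above 0 in a library. Fewest genes were above 0 in the Yuanjiangyangsuan libraries, 30914 to 32569, against 33085 to 34172 in Ershuizao and 33028 to 33596 in Chalingzipisuan. Of all genes, 41980 were above 0 in at least 1 library. Enlarging replicate 3 of Chalingzipisuan stood apart from its group, with a chi-square of 108 and 113 per degree of freedom against the other 2 libraries, which differed from each other by 14.6. Without it the rule would take 88 genes, 72 higher and 16 lower in Ershuizao, and the counts of the placement of Yuanjiangyangsuan at the 82 genes were equal, with 46 genes at Chalingzipisuan and 20 at Ershuizao. Intervals and limits from a count of 0 cover counting error only.

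The 70 genes higher in Ershuizao are 0.167% of the 41980 genes with a value, and the 12 lower genes are 0.0286%. By the same distance Yuanjiangyangsuan was apart from Ershuizao at 2813 genes (6.70%) and from Chalingzipisuan at 2642 genes (6.29%), so that Ershuizao and Chalingzipisuan were the closest of the 3 pairs by this count. The excess of higher over lower genes depended on the distance. With no overlap alone asked for, 264 genes were higher and 223 lower in Ershuizao (54.2% higher), against 85.4% higher at a distance of 1.

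The 70 higher genes were mostly genes with transcripts in Ershuizao and few or none in Chalingzipisuan. All 70 were above 0 in every one of the 6 Ershuizao libraries, while 30 to 37 of them were above 0 in a Yuanjiangyangsuan library and 14 to 22 in a Chalingzipisuan library. At 39 of the 70 no fragment was found in any Chalingzipisuan library, where 9.49% of all genes with a value were at 0. The rule asks for low Chalingzipisuan libraries at these genes, so that this count follows in large part from it. Nothing is read from it against the share of all genes. Their mean level in Ershuizao ranged from 1.43 to 192 FPKM, with a median of 5.22, and 24 of the 70 reached 10 FPKM. Within Ershuizao the highest library exceeded the lowest by 1.30 to 30.6 times, with a median of 2.42 times. The 12 lower genes had means of 1.16 to 33.0 FPKM in Chalingzipisuan, and 2 of them were at 0 in all Ershuizao libraries.

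**Figure D1:**
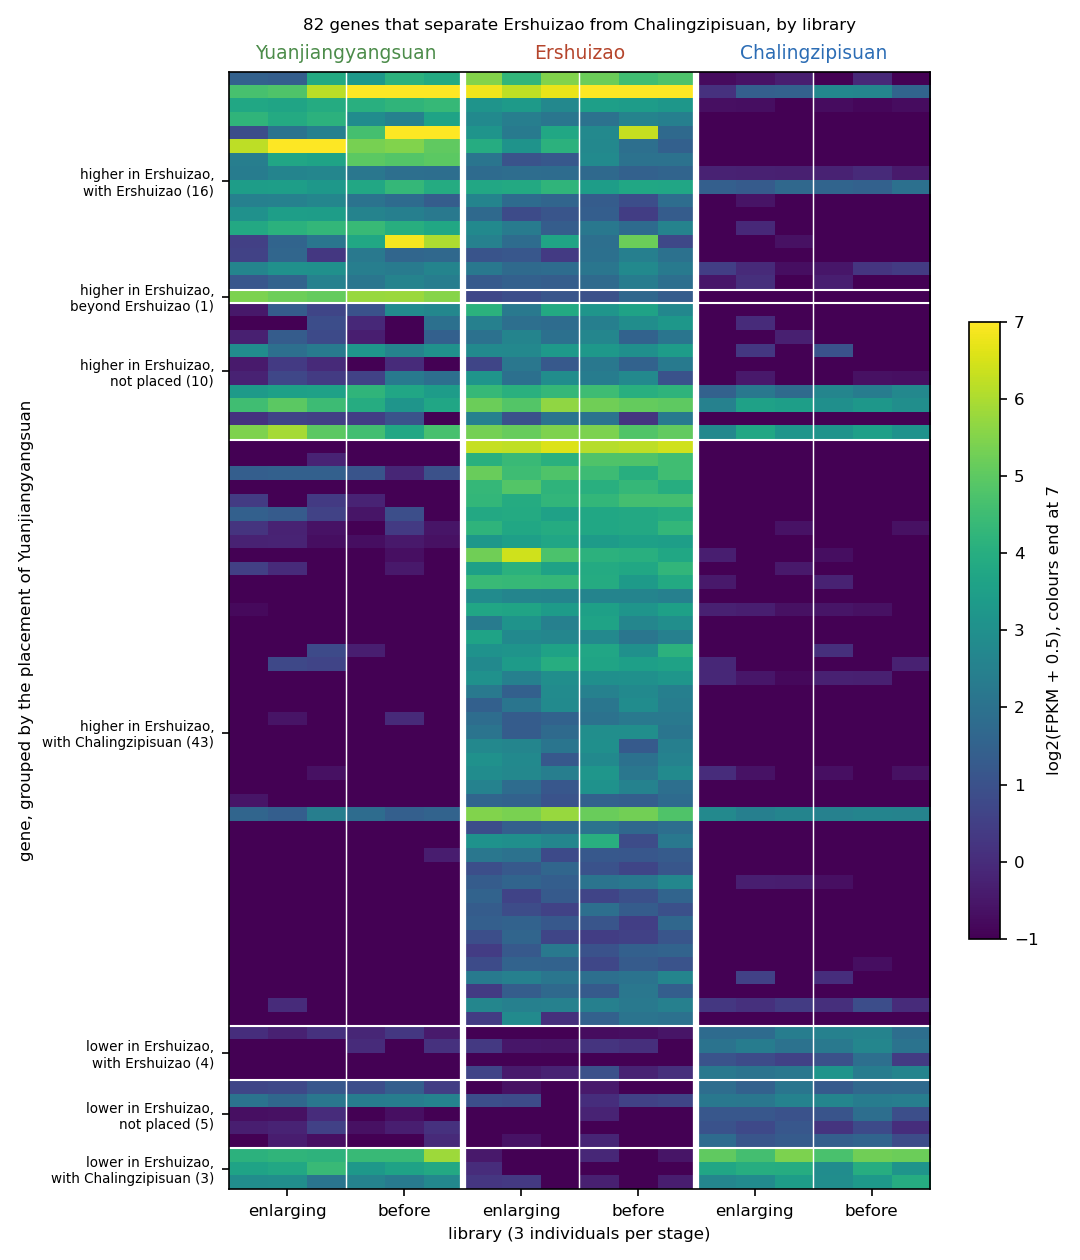
Level of the 82 genes in each of the 18 libraries, as log2(FPKM + 0.5), with 1 row per gene, 1 column per library, and the columns grouped by variety and stage. Rows are grouped by the direction in Ershuizao and the placement of Yuanjiangyangsuan, with the number of genes in brackets; the block of 43 genes is bright in the Ershuizao columns and dark, at or near 0 FPKM, in most Yuanjiangyangsuan and Chalingzipisuan columns.

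To say which variety Yuanjiangyangsuan resembled, the same distance was asked of its 6 libraries. A gene was placed with Ershuizao where all 6 lay more than 1 from all Chalingzipisuan libraries on the side of Ershuizao and not all more than 1 from Ershuizao, with Chalingzipisuan in the mirrored case, and apart where they were more than 1 from both. Among the 70 higher genes, Yuanjiangyangsuan was placed with Chalingzipisuan at 43, with Ershuizao at 16, beyond Ershuizao at 1 and not placed at 10. Among the 12 lower genes, it was placed with Chalingzipisuan at 3, with Ershuizao at 4 and not placed at 5. Over all genes with a value, Yuanjiangyangsuan lay more than 1 above Ershuizao at 1.99% and more than 1 below it at 4.71%, and more than 1 above Chalingzipisuan at 1.95% and more than 1 below it at 4.34%. At 26 of the 43 genes no fragment was found in any Yuanjiangyangsuan library, where 12.1% of all genes with a value were at 0. At 21 of the 70 neither Yuanjiangyangsuan nor Chalingzipisuan had a fragment. Placement with Chalingzipisuan at a higher gene asks for low Yuanjiangyangsuan libraries. These counts follow in large part from it and from the rule, and nothing is read from them against all genes.

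**Figure D2:**
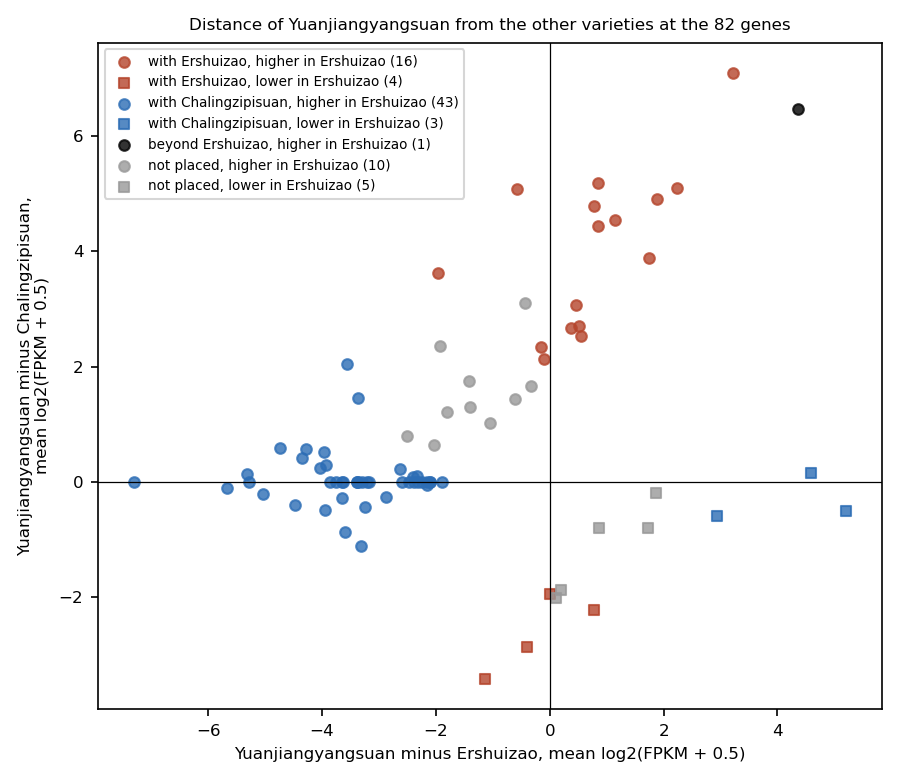
Mean of Yuanjiangyangsuan minus mean of Ershuizao (x axis) and minus mean of Chalingzipisuan (y axis) in log2(FPKM + 0.5) for the 82 genes, each mean over 6 libraries, coloured by placement and shaped by direction. Of the 43 genes higher in Ershuizao and placed with Chalingzipisuan, most lie left along the zero line of the y axis. On that axis the 43 range from -1.12 at *Asa8G00862.1* to 2.04 at *Asa8G02475.1*. Most genes placed with Ershuizao lie high and near or right of the zero line of the x axis.

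*Asa5G00518.1* was the gene of greatest width, where width is the distance in L between the nearest libraries of both varieties. It was at 0 in all 6 Yuanjiangyangsuan libraries, and it had 69.0 to 95.0 FPKM in Ershuizao with a median of 77.0, against 0 in all 6 Chalingzipisuan libraries, a width of 7.12. The lowest Ershuizao library held 338 fragments of this gene, and with 3 fragments per library as the limit of a count of 0, its mean of 79.3 ± 9.31 FPKM (SD, n = 6) in Ershuizao was at least 142-fold higher than in Chalingzipisuan. The Ershuizao libraries of both stages overlapped.

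A single fragment of *Asa0G00678.1* was found in the 6 Yuanjiangyangsuan libraries. It had 16.3 to 27.5 FPKM in Ershuizao with a median of 21.8, against 0 in all 6 Chalingzipisuan libraries, at least 19.2-fold higher. At *Asa8G02475.1* Yuanjiangyangsuan was low but not at 0, with 0.412 to 2.25 FPKM and a median of 1.85. The Ershuizao libraries had 15.8 to 35.5 FPKM with a median of 22.8, against 0 in all Chalingzipisuan libraries, at least 39.0-fold higher, so that the gene was placed with Chalingzipisuan by its distance while all 6 Yuanjiangyangsuan libraries exceeded all 6 Chalingzipisuan libraries. *Asa2G02568.1* was one of the 8 higher genes above 0 in all 18 libraries. Yuanjiangyangsuan was lowest of the 3 at this gene, with 2.13 to 4.83 FPKM and a median of 2.51. Ershuizao had 27.1 to 53.7 FPKM with a median of 40.2, against 4.93 to 6.33 FPKM with a median of 5.53 in Chalingzipisuan, 7.27-fold higher by the means.

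The 16 higher genes placed with Ershuizao were at a higher level in Yuanjiangyangsuan than in Ershuizao at 12 genes by the means. The median of the 16 gene means was 12.6 FPKM in Yuanjiangyangsuan, 4.57 FPKM in Ershuizao and 0.0512 FPKM in Chalingzipisuan. *Asa6G02133.1*, the widest of them, had 2.13 to 17.1 FPKM in Yuanjiangyangsuan with a median of 11.5, below every Ershuizao library and above every Chalingzipisuan library. Ershuizao had 18.8 to 45.0 FPKM with a median of 31.5, against 0 to 0.457 FPKM with a median of 0.125 in Chalingzipisuan. *Asa2G07195.1* had the highest level of the 82 genes. Yuanjiangyangsuan had 24.9 to 416 FPKM with a median of 136, within and below the range of Ershuizao. Ershuizao had 75.6 to 465 FPKM with a median of 152, against 0.614 to 6.07 FPKM with a median of 2.40 in Chalingzipisuan, 59.3-fold higher by the means. At *Asa1G01559.1* Yuanjiangyangsuan exceeded both, with 12.2 to 20.2 FPKM and a median of 15.4. Ershuizao had 6.16 to 10.9 FPKM with a median of 9.27, against 0 to 0.123 FPKM with a median of 0.0961 in Chalingzipisuan.

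*Asa8G02792.1* was the only gene at which Yuanjiangyangsuan lay more than 1 beyond Ershuizao with both stages taken. Its 6 libraries had 34.1 to 55.2 FPKM with a median of 44.0, against 1.12 to 2.68 FPKM with a median of 1.56 in Ershuizao. In Chalingzipisuan no fragment was found, which puts Yuanjiangyangsuan at least 326-fold and Ershuizao at least 12.5-fold higher than Chalingzipisuan. The level of this gene therefore fell into 3 ranges that did not overlap, with Yuanjiangyangsuan highest and Chalingzipisuan at 0.

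Among the 12 genes lower in Ershuizao, *Asa8G05954.1* had the greatest width. Yuanjiangyangsuan had 17.1 to 56.7 FPKM with a median of 19.3, which overlapped Chalingzipisuan. Ershuizao had 0 to 0.421 FPKM with a median of 0.0928, 4 fragments in all, against 23.9 to 42.4 FPKM with a median of 34.3 in Chalingzipisuan. *Asa7G01918.1* had 9.22 to 20.8 FPKM with a median of 12.7 in Yuanjiangyangsuan and was found with 1 fragment in the 6 Ershuizao libraries, against 6.93 to 15.2 FPKM with a median of 13.9 in Chalingzipisuan. The levels of Yuanjiangyangsuan and Chalingzipisuan overlapped there too. *Asa2G00974.1* had 3.78 to 7.24 FPKM in Yuanjiangyangsuan with a median of 5.83, and 0 to 0.765 FPKM in Ershuizao with a median of 0.297, against 5.91 to 14.8 FPKM with a median of 8.36 in Chalingzipisuan. At these 3 genes Yuanjiangyangsuan was placed with Chalingzipisuan.

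At the 4 lower genes placed with Ershuizao, transcripts were few in both Yuanjiangyangsuan and Ershuizao. *Asa6G05132.1* had 0.250 to 0.721 FPKM in Yuanjiangyangsuan with a median of 0.462, and 0 to 0.181 FPKM in Ershuizao with a median of 0.0513, against 2.99 to 5.52 FPKM with a median of 3.99 in Chalingzipisuan. *Asa1G00956.1* had 0 to 0.603 FPKM in Yuanjiangyangsuan and 0 to 0.743 FPKM in Ershuizao, against 3.51 to 5.87 FPKM in Chalingzipisuan. *Asa8G01248.1* was at 0 in all 12 libraries of Yuanjiangyangsuan and Ershuizao, and Chalingzipisuan had 0.815 to 3.30 FPKM, so that Ershuizao was at least 6.59-fold lower. *Asa5G01198.1* was at 0 in all 6 Yuanjiangyangsuan libraries, against 0.253 to 1.46 FPKM in Ershuizao and 3.61 to 8.26 FPKM in Chalingzipisuan.

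**Figure D3:**
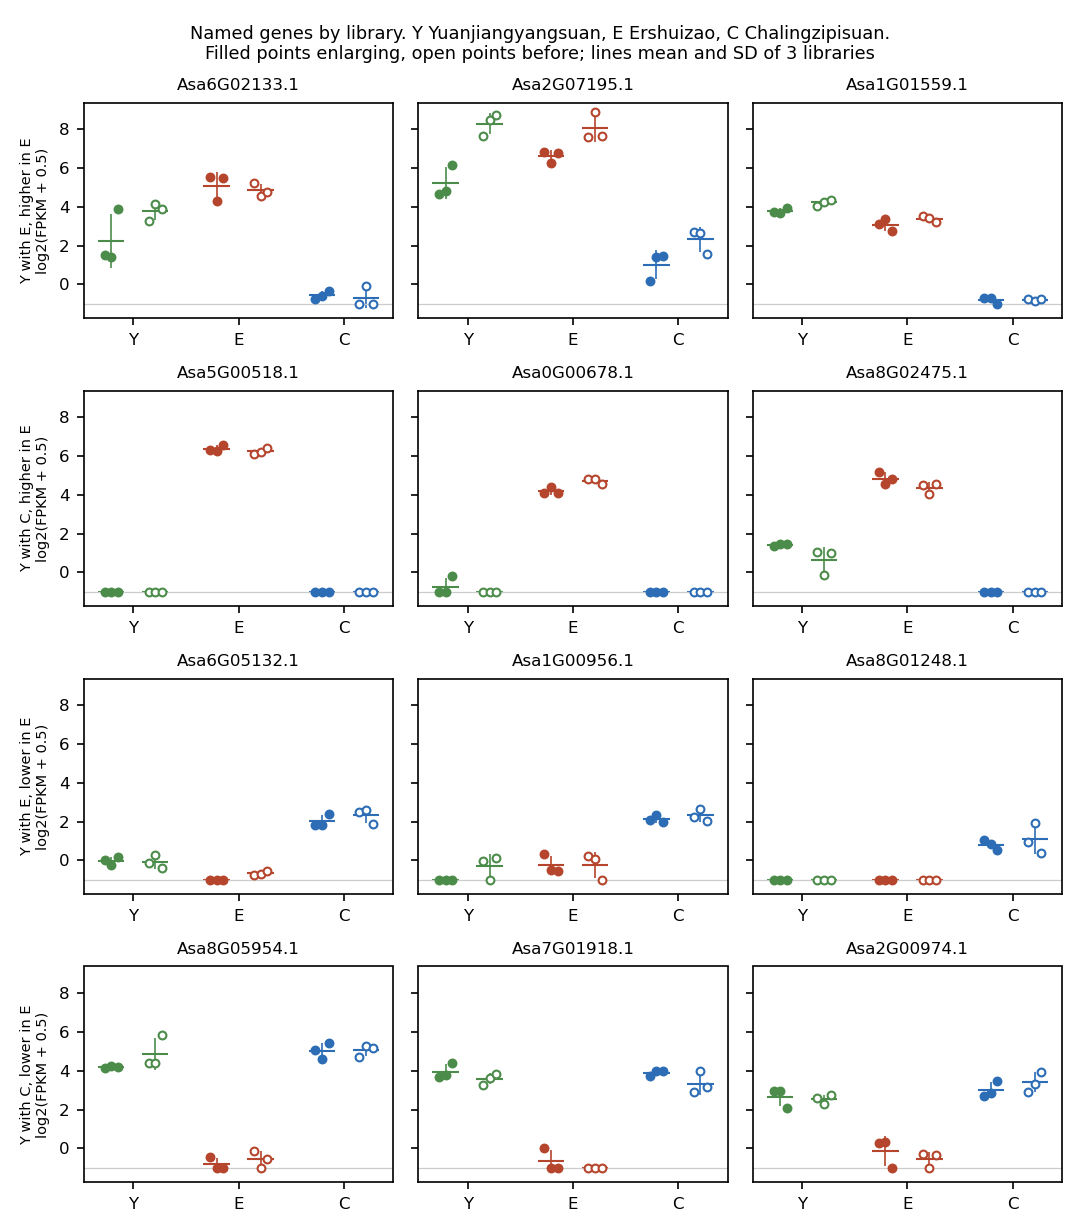
Levels of 12 of the genes in each library as log2(FPKM + 0.5), 3 genes per class (rows), with Yuanjiangyangsuan (Y), Ershuizao (E) and Chalingzipisuan (C) side by side, filled points under and open points before enlargement, and lines for the mean and SD of 3 libraries. The points of Yuanjiangyangsuan lie on the side of Ershuizao in the 2 rows of genes placed with Ershuizao and on the side of Chalingzipisuan in the 2 rows placed with Chalingzipisuan, and the grey line marks 0 FPKM.

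The varieties were also compared with limma on log2(FPKM + 0.5) over all 18 libraries, for 33681 genes with at least 0.5 FPKM in at least 3 libraries, among them all 82 genes. Genes were called at an adjusted p under 0.05 and more than 2-fold. The libraries of Ershuizao and Chalingzipisuan had served to select the genes and to place Yuanjiangyangsuan, and many genes passed the filter only through the variety in which they were selected as high. The counts follow in large part from this, are given as a description, and nothing is read from them against the shares of all genes. Yuanjiangyangsuan was above Ershuizao at 11 of the 82 genes and below it at 52, where 8.90% and 15.5% of all genes tested were called. It was above Chalingzipisuan at 27 and below it at 7, where 9.13% and 13.9% were called. Of the 43 higher genes placed with Chalingzipisuan, *Asa8G02475.1* and *Asa2G04068.1* were called above Chalingzipisuan and *Asa8G00862.1* below it.

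Of the 16 higher genes placed with Ershuizao, 5 were called above Ershuizao and 1, *Asa6G02133.1*, below it, with a log2 difference of -1.96 (standard error 0.38). Their p-values are not given, since the same Ershuizao libraries had selected the genes. The largest of the 5 was *Asa0G00770.1*, with 32.4 to 164 FPKM in Yuanjiangyangsuan and a median of 59.0, against 2.22 to 17.2 FPKM and a median of 7.12 in Ershuizao (log2 difference 3.22, standard error 0.25). *Asa5G03195.1* had 4.81 to 31.3 FPKM in Yuanjiangyangsuan with a median of 20.6, against 1.56 to 6.62 FPKM with a median of 3.56 in Ershuizao (log2 difference 2.23, standard error 0.25). *Asa0G03815.1*, *Asa2G00496.1* and *Asa4G05638.1* were the others, with log2 differences of 1.89, 1.74 and 1.15. All 5 genes were at 0 in Chalingzipisuan but for *Asa0G03815.1*, found there in 1 library at 0.447 FPKM.

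The 15 genes that were not placed were 10 higher and 5 lower in Ershuizao. *Asa6G04637.1* had 9.87 to 18.2 FPKM in Yuanjiangyangsuan with a median of 11.3, 16.0 to 22.3 FPKM in Ershuizao with a median of 18.8 and 2.33 to 6.11 FPKM in Chalingzipisuan with a median of 4.41. *Asa2G07268.1* had 13.2 to 59.6 FPKM in Yuanjiangyangsuan with a median of 27.8, which covered the whole range of Ershuizao, 28.2 to 43.7 FPKM with a median of 37.1. Chalingzipisuan had 6.10 to 13.0 FPKM with a median of 8.27 at this gene. Over the 10 higher genes not placed, the mean ranged from 0.331 to 32.5 FPKM in Yuanjiangyangsuan, from 2.97 to 37.0 FPKM in Ershuizao and from 0 to 9.09 FPKM in Chalingzipisuan.

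Whether the placement held at each stage was asked with the 3 libraries of Yuanjiangyangsuan of 1 stage at a time. With the enlarging libraries, 45 genes were placed with Chalingzipisuan, 19 with Ershuizao, 7 apart from both and 11 not placed. With those before enlargement, 47 were placed with Chalingzipisuan, 23 with Ershuizao, 2 apart from both and 10 not placed. Placement was the same at both stages for 66 of the 82 genes, 44 of them with Chalingzipisuan and 15 with Ershuizao. No gene was placed with Ershuizao at 1 stage and with Chalingzipisuan at the other. Of the 16 genes that changed class, 9 were not placed with both stages taken, and the other 7 moved to a level between or beyond the other varieties. *Asa8G02475.1* and *Asa2G04068.1* lay between them under enlargement, and *Asa4G05638.1*, *Asa0G00770.1*, *Asa2G00496.1* and *Asa0G03815.1* lay beyond Ershuizao under enlargement, while *Asa5G03195.1* lay beyond it before enlargement.

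The stage change in Yuanjiangyangsuan used no library that had served to select the genes. Of the 82 genes, 34 passed the filter of 0.5 FPKM in at least 3 of the 6 libraries, 28 higher and 6 lower in Ershuizao. At an unadjusted P under 0.05 and more than 2-fold, 5 rose and 7 fell with enlargement, 14.7% and 20.6% of the 34, beside 11.8% and 15.6% of all genes tested. At an adjusted p under 0.05 and more than 2-fold they were 8, or 23.5%, beside 25.0%. These shares were near those of all genes. Without replicate 2 before enlargement of Yuanjiangyangsuan 6 genes were called. All 12 genes are higher in Ershuizao, 7 of them placed with Ershuizao, 4 not placed and 1 placed with Chalingzipisuan. This split is read as no result, since few of the genes placed with Chalingzipisuan could be tested. Of the 43 higher genes placed there, 26 were at 0 in all 6 Yuanjiangyangsuan libraries and so failed the filter.

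The largest changes were falls at a pair of genes with consecutive numbers. *Asa2G07527.1* had 1.34, 3.61 and 5.10 FPKM under enlargement, against 24.3, 182 and 190 FPKM before enlargement in Yuanjiangyangsuan (log2 fold change -4.77, standard error 0.84, limma adjusted p = 0.00633). *Asa2G07528.1* had 0.943, 2.51 and 3.90 FPKM under enlargement, against 13.2, 64.6 and 119 FPKM before enlargement (log2 fold change -4.15, standard error 0.81, limma adjusted p = 0.00911). The stages did not overlap at either gene. In Ershuizao 1 library before enlargement, replicate 2, was far above the others at both, with 78.8 FPKM of *Asa2G07527.1* against 2.83 to 13.1 FPKM in the other 5 libraries and 36.0 FPKM of *Asa2G07528.1* against 1.18 to 12.2 FPKM. In Chalingzipisuan *Asa2G07527.1* was at 0 in all libraries and *Asa2G07528.1* was found with 3 fragments in 1 library.

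*Asa2G07195.1* was lower under enlargement in all 3 varieties. In Yuanjiangyangsuan it had 24.9, 27.5 and 71.6 FPKM under enlargement, against 201, 355 and 416 FPKM before enlargement (log2 fold change -3.06, standard error 0.46, limma adjusted p = 0.00378). The Ershuizao libraries had 75.6, 107 and 113 FPKM under enlargement, against 191, 201 and 465 FPKM before enlargement (log2 fold change -1.43, standard error 0.36, limma adjusted p = 0.0636). In Chalingzipisuan it had 0.614, 2.18 and 2.30 FPKM under enlargement, against 2.50, 5.78 and 6.07 FPKM before enlargement (log2 fold change -1.30, standard error 0.50, limma adjusted p = 0.245). In each variety all 3 libraries before enlargement lay above all 3 under enlargement. The difference of the change between varieties did not pass (interaction, limma adjusted p = 0.302). That is read as no result, since the interaction used the libraries that had selected the gene. The stage p-values of Ershuizao and Chalingzipisuan given here come from those libraries too and are likewise read as no result. The rule asks that both stages of a variety lie on the same side. *Asa0G00770.1* was higher under enlargement, with 73.4, 143 and 164 FPKM under enlargement, against 32.4, 40.7 and 44.5 FPKM before it in Yuanjiangyangsuan (log2 fold change 1.61, standard error 0.30, limma adjusted p = 0.0066). The Ershuizao libraries had 8.06, 15.0 and 17.2 FPKM under enlargement, against 2.22, 3.28 and 6.19 FPKM before it (log2 fold change 1.70, standard error 0.41, limma adjusted p = 0.0573). *Asa5G03195.1* fell in Yuanjiangyangsuan to 4.81, 11.9 and 12.9 FPKM under enlargement, against 28.2, 31.3 and 31.3 FPKM before (log2 fold change -1.68, standard error 0.34, limma adjusted p = 0.00906).

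**Figure D4:**
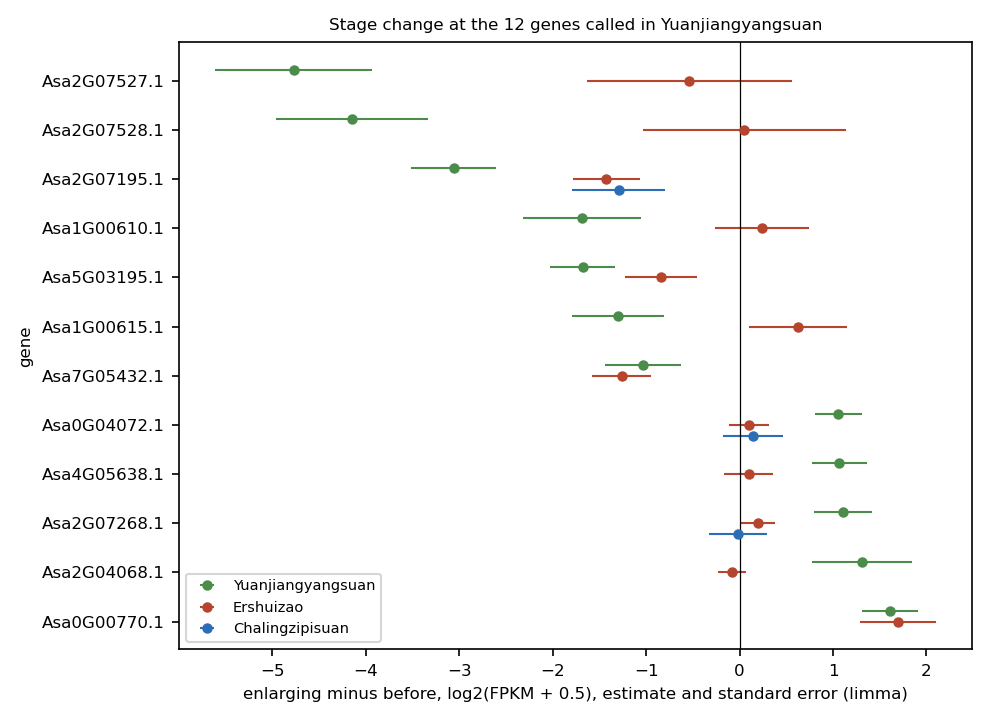
Stage change, as the limma estimate of enlarging minus before in log2(FPKM + 0.5) with its standard error, at the 12 genes called in Yuanjiangyangsuan, beside Ershuizao and Chalingzipisuan where the gene passed the filter there. The fall of -4.77 at *Asa2G07527.1* is the largest, *Asa2G07195.1* lies left of zero in all 3 varieties, and *Asa0G00770.1* lies right of zero by 1.61 in Yuanjiangyangsuan and 1.70 in Ershuizao.

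In Ershuizao 73 of the 82 genes passed the filter, and 2 rose and 2 fell with enlargement at an unadjusted P under 0.05 and more than 2-fold (2.74% each, beside 5.31% and 7.65% of all genes tested). None of the 73 passed at an adjusted p, where 4.72% of all genes did. In Chalingzipisuan 20 passed the filter, none rose and 1, *Asa2G07195.1*, fell, beside 4.60% and 7.11% of all genes, and none of the 20 passed at an adjusted p, beside 0.237%. The rule asks that both stages of a variety lie on the same side, which limits how far they can be apart, so that these low counts are read as no result. The 4 genes of Ershuizao were *Asa6G03213.1* and *Asa0G00770.1*, which were higher under enlargement, and *Asa2G07195.1* and *Asa7G05432.1*, which were lower. Without enlarging replicate 1 of Ershuizao 7 were called. *Asa6G03213.1*, placed with Chalingzipisuan, had 26.3, 37.7 and 85.8 FPKM under enlargement, against 13.0, 15.9 and 17.1 FPKM before it in Ershuizao.

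The interaction of stage and variety used the same libraries as the rule and carries the same limit, so that its count is read as no result either. None of the 82 genes passed it (limma F test, lowest adjusted p = 0.13), where 1.20% of all genes tested did. With limma voom on the recovered fragments 0 passed. Leaving out 1 library, 0 to 2 passed, with 2 without replicate 2 before enlargement of Ershuizao, the library that is high at *Asa2G07527.1* and *Asa2G07528.1*, and 1 without enlarging replicate 2 of Ershuizao or replicate 2 before enlargement of Yuanjiangyangsuan.

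Members lying side by side were looked for by gene number, since positions were not at hand. The longest runs of consecutive numbers were pairs, of which there were 5, all higher in Ershuizao. The genes on either side were not among the 82, but 4 of these 10 were at 0 in all 18 libraries and could not have separated the varieties. *Asa4G00984.1*, *Asa7G00352.1* and *Asa7G00355.1* were also too low for the rule, with means of at most 0.485 FPKM in Ershuizao and in Chalingzipisuan. The end of a run at such genes is therefore no result. *Asa1G01536.1* had 14.6 to 24.0 FPKM in Ershuizao with a median of 19.2 and *Asa1G01537.1* had 11.3 to 18.8 FPKM with a median of 13.7, against 0 and at most 0.230 FPKM in Chalingzipisuan. *Asa2G04067.1* had 13.1 to 19.3 FPKM and *Asa2G04068.1* 11.5 to 15.0 FPKM in Ershuizao, against at most 0.158 and 0 FPKM in Chalingzipisuan. The level of the first of these 2 genes was 0.158 to 0.564 times that of the second in the 4 Yuanjiangyangsuan libraries that held both, and 0.921 to 1.29 times over the 6 Ershuizao libraries. Those 4 libraries held only 1 to 5 fragments of the first gene and 5 to 11 of the second. Replicate 3 before enlargement of Yuanjiangyangsuan held 1 and 0. A difference of the ratio between the varieties is therefore not read from these values. *Asa4G00985.1* and *Asa4G00986.1* had medians of 6.38 and 11.4 FPKM in Ershuizao, against 0.133 and 0 FPKM in Chalingzipisuan. *Asa7G00353.1* and *Asa7G00354.1* had medians of 4.33 and 3.74 FPKM in Ershuizao, against 0 in all Chalingzipisuan libraries, and the second rests on as few as 2 fragments in a library.

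The pair *Asa2G07527.1* and *Asa2G07528.1* moved together over a wide range. The ratio of the first to the second was 1.31 to 2.82 over the 6 Yuanjiangyangsuan libraries and 1.08 to 2.40 over the 6 Ershuizao libraries, while the highest library of *Asa2G07527.1* exceeded the lowest by 27.9 times within Ershuizao. *Asa1G00610.1* and *Asa1G00615.1*, which are not consecutive, had the same recovered length of 999 bases and a ratio of 1.28 to 3.92 in Ershuizao. Whether such genes are copies that share fragments, or parts of a single transcript, was not tested, and their values are uncertain to that extent.

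**Figure D5:**
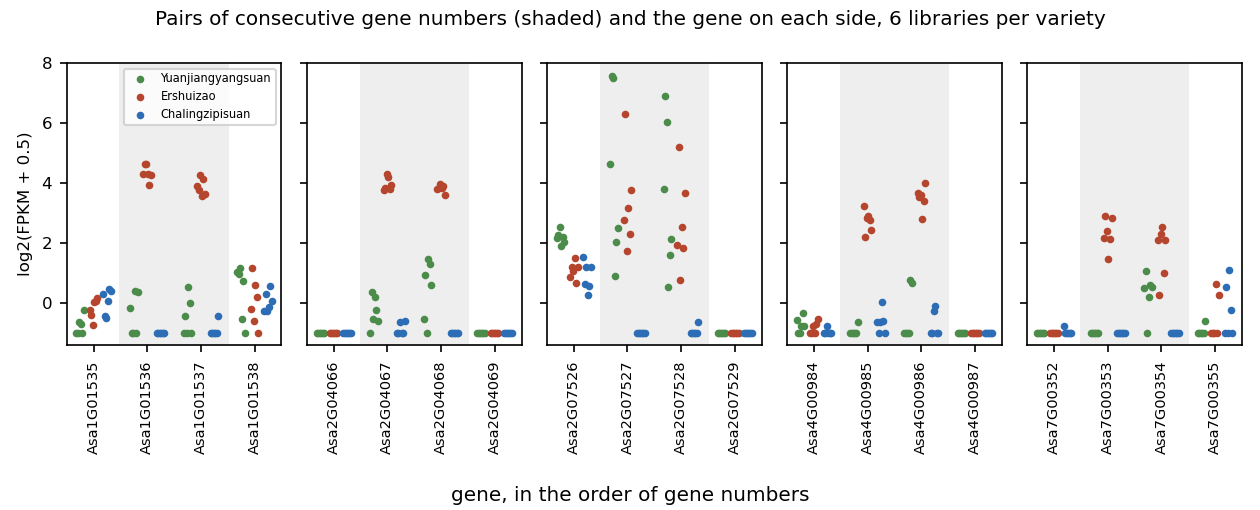
The 5 pairs of consecutive gene numbers (shaded) with the gene before and after each, in log2(FPKM + 0.5), with a point for each of the 6 libraries of Yuanjiangyangsuan, Ershuizao and Chalingzipisuan. In the shaded genes the Ershuizao points lie above all Chalingzipisuan points, while the flanking genes do not separate Ershuizao from Chalingzipisuan, 4 of them being at 0 FPKM in every library, and the Yuanjiangyangsuan points of *Asa2G07527* and *Asa2G07528* spread furthest.

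The genes were short. Their median recovered length was 423 bases, beside 702 for all genes with a length, and 58.5% were under 500 bases, beside 34.7%. Of the recovered lengths of all genes 94.3% are multiples of 3, and so are those of 73 of the 82 genes. Whether they are coding lengths could not be checked, since no annotation was at hand. In a short gene 1 fragment is a larger step in FPKM, and 47 of the 70 higher genes and all 12 lower genes had at least 10 fragments in every library of the higher variety. By the first number of the gene ID, 16 of the 82 genes lay in series 8, 0.343% of its 4670 genes with a value, beside 0.106% to 0.228% in the other 8 series. This is a description, with no test.

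At the edge of the rule the levels were low. The narrowest genes taken were *Asa5G01746.1*, with a width of 1.02, 0 to 0.384 FPKM in Ershuizao against 1.30 to 3.00 FPKM in Chalingzipisuan, and *Asa4G05495.1*, with a width of 1.05 and 0 FPKM in Ershuizao against 0.538 to 1.77 FPKM. Just outside lay *Asa1G04356.1*, with a width of 0.966, 0 FPKM in Ershuizao against 0.477 to 1.84 FPKM in Chalingzipisuan, and *Asa3G04465.1*, with a width of 0.961, 0.473 to 8.04 FPKM in Ershuizao against 0 FPKM.

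None of the 13 genes that the study names for bud outgrowth, day length or gibberellin signals was among the 82. Since 0.195% of all genes with a value were taken, this count says nothing particular about them. The mean difference in L between Ershuizao and Chalingzipisuan ranged over these genes from -0.40 to 0.80. The study chose several of them on these or related libraries. *Asa2G00681.1*, an *ELF4*-like gene, whose Arabidopsis relative belongs to the circadian clock, had 9.99 ± 4.17 FPKM in Ershuizao and 14.1 ± 9.39 FPKM in Chalingzipisuan (SD, n = 6 each). *Asa6G06199.1*, an *FT*-like gene, of a family whose Arabidopsis member carries the flowering signal, had 7.52 ± 4.32 FPKM in Ershuizao and 7.35 ± 3.83 FPKM in Chalingzipisuan (SD, n = 6 each). *Asa6G01110.1*, the *BEL5* ortholog, whose potato relative acts in tuber formation, had 64.7 ± 39.2 FPKM in Ershuizao and 43.4 ± 34.7 FPKM in Chalingzipisuan (SD, n = 6 each). Each of these SDs spans both stages, so that it holds any stage change as well as the spread between plants.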

How the data were processed

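The 18 libraries were prepared by the authors from total RNA with the NEBNext Ultra kit and read as pairs. Filtered reads were mapped by the authors to 1 garlic genome with hisat2 at its default settings. They deposited 1 FPKM value per gene and library. The program that counted fragments is not given in the sources used here. Groups follow the labels. The genes, lists and tests were chosen with earlier results of these data known.

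The low FPKM values of a gene are whole multiples of a step, from which fragments were recovered for 39933 genes (99.7% of values above 0, tolerance 0.003), the rest being above 0 in 1 library. Recovery, the rule and the tests were tested on simulated data. No 2 replicates were the same library.

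The values log2(FPKM + 0.5) were tested with limma 3.58.1 (R 4.3.3), with trend and robust estimation and Benjamini-Hochberg adjustment over all genes tested: variety contrasts and interaction over 18 libraries and 6 group means, and stage within the 6 libraries of a variety, at the thresholds of the study's methods. The pseudocount understates changes of low genes, and p-values measure the spread between individual plants. Median-ratio scaling shifted libraries by -0.07 to 0.03 (log2).

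Genes were named by rule: in each direction the 3 widest placed with each variety, the 2 widest apart from both, the 2 of highest level and the 2 of largest called stage change in Yuanjiangyangsuan, the 2 narrowest, 2 just outside, and the longest run of gene numbers. *Asa2G02568.1*, *Asa6G04637.1*, *Asa2G07268.1*, *Asa5G01198.1*, *Asa0G00770.1*, *Asa5G03195.1*, *Asa0G03815.1*, *Asa2G00496.1*, *Asa4G05638.1*, *Asa6G03213.1*, *Asa7G05432.1*, *Asa8G00862.1*, *Asa1G00610.1* and *Asa1G00615.1* were added after their values were seen. Python 3.11.15, numpy 2.4.6, pandas 2.3.3 and matplotlib 3.10.9 were used. Alternatives were other pseudocounts, distances, filters and scalings, a replicate block, limma voom, adjusted p, a fit of all libraries and each library left out.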

Additional observations from a re-analysis of the deposited data

How the results depend on the processing

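The number of genes depended most on the distance asked for: 487 genes (264 higher and 223 lower in Ershuizao) with no overlap alone, and 40 (36 and 4) at a distance above 2. At the 82 genes, no overlap alone put Yuanjiangyangsuan apart at 13 and left 3 not placed, and a distance above 2 put 7 with Ershuizao and left 43 not placed. With a pseudocount of 0.1, 21 genes were lower, 4 apart and 9 not placed, and with a pseudocount of 1, 7 were lower and 26 not placed. Quantile normalization put 3 apart, placement by the nearer mean 0 apart and 0 not placed, the enlarging libraries of Yuanjiangyangsuan 7 apart and those before enlargement 2. At an adjusted p the stage changed 0 genes in Ershuizao and 0 in Chalingzipisuan, and limma voom called 2 in Chalingzipisuan. Leaving out 1 library gave 1 to 3 genes apart, 0 to 2 with an interaction, and 4 to 7 stage changes in Ershuizao, 0 to 1 in Chalingzipisuan and 6 to 11 in Yuanjiangyangsuan. The cause was not tested. Of the other values, 621 of 627 for named genes kept their direction and side of the threshold, and 6, all of the stage change of *Asa2G04068.1* in Yuanjiangyangsuan, no longer passed. Most of the 627 are variety differences at genes chosen and placed by distance between the same libraries. Their stability follows in large part from this and is read as no result. The genes added after their values were seen are not among the 627.

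Replicate numbers are shared by the groups but did not pair the plants: correlations of same-numbered libraries ran from -0.25 to 0.14, and 4 of 18 libraries correlated best with their own number. With the replicate block 0 genes changed with stage in Chalingzipisuan, against 1 without it, and the other counts were 4 in Ershuizao, 12 in Yuanjiangyangsuan, 34 between Yuanjiangyangsuan and Chalingzipisuan, 63 between Yuanjiangyangsuan and Ershuizao, and 0 for the interaction. Depth limits the low genes: a median of 15 fragments stood behind the lowest Ershuizao library of a higher gene, and at 0 a level of up to 3 fragments cannot be told from none.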
